A study of Mus musculus with 15 samples.

Results

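The genes described here encode cathepsins and secreted or shed macrophage proteins: cathepsin C (Ctsc), cathepsin S (Ctss), galectin-3 (Lgals3), macrophage migration inhibitory factor (Mif), osteopontin (Spp1), amyloid precursor protein (App), urokinase (Plau), the urokinase receptor (Plaur) and fibronectin (Fn1). They were taken by gene symbol from a panel of 561 immune genes. Of the 9 genes named, 7 were rows of the count table. Lgals3 and Spp1 were not found under these or older symbols and were not analysed here. Ctss, Mif, App, Plau and Plaur averaged 20 counts or more across all samples, the minimum set for testing, and were tested among 269 genes, whereas Ctsc (mean 12 counts) and Fn1 (mean 5.27 counts) fell short of it.

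The cells were RAW 264.7 macrophages, an established mouse line, and every culture, including the sham controls, received lipopolysaccharide (LPS, 1 µg/ml) together with plasma extracellular vesicles (EVs) for 24 hours. The EV donors were female C57BL/6J mice, 6 to 8 weeks old. They were either sham mice or had received whole-body ionizing radiation (WBIR) at 2 or 9 Gy, with plasma taken at day 3 or day 7. The 5 groups, called sham, 2 Gy day 3, 2 Gy day 7, 9 Gy day 3 and 9 Gy day 7, had 3 samples each. No culture without LPS or without EVs was analysed here. The macrophages themselves were not irradiated. The methods describe the panel samples as triplicates, and neither they nor the labels say whether these were separate EV preparations, separate cultures or repeat runs, so p-values measure the spread between these samples, which may be technical.

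Depth differed strongly between groups. Total counts were 43176 to 87899 in the 9 Gy day 3 samples and 453178 to 837995 in the other 12 samples, so values of low genes in the 9 Gy day 3 group carry the largest counting error. The geometric mean count of the 14 housekeeping genes of the panel, to which counts were scaled, was 454 to 545 in sham samples, 69.2 to 124 in 9 Gy day 3 samples and 801 to 872 in 9 Gy day 7 samples. The labels of some samples conflict: replicates 1 and 2 of 9 Gy day 3 are titled as day 3 but carry a day label of 7, and they were placed by title. Of the 10 macrophage marker genes listed, Cd68 was not among the rows, and none of the 9 others was at the lowest count of 1 throughout a group. Their summed normalized level was 12901 to 18634 in sham samples, 7730 to 9960 at 9 Gy day 3 and 7719 to 9490 at 9 Gy day 7. As a share of all counts they made up 1.87 to 2.88% in sham samples, 2.46 to 2.80% at 9 Gy day 3 and 2.66 to 2.95% at 9 Gy day 7. The sum was thus lower on the housekeeping scale but not as a share of all counts, while single markers differed, as described below. The part of the markers in the results below was not tested. Markers of the other blood cells compared here were low, with summed raw counts in sham samples of 156 to 214 for 6 T cell markers, 7 to 25 for 2 NK cell markers, 7 to 19 for 2 platelet markers and 37 to 52 for 3 neutrophil markers. In the 9 Gy day 3 samples these sums were 2 to 26 over the lists, and Cd3d, Klrd1, Klrb1, Itga2b and Camp were at 1 in all 3 samples.

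Cathepsins C and S are lysosomal cysteine proteases. Cathepsin S trims the invariant chain from MHC class II molecules and is also secreted by activated macrophages, and cathepsin C activates the serine proteases of immune cell granules. Urokinase converts plasminogen to plasmin at the cell surface, where it is held by its receptor uPAR. MIF is a cytokine stored inside the cell and released on stimulation, which signals through CD74 with CD44 as its partner. APP is a membrane protein whose extracellular part is shed by proteases, and fibronectin is an adhesive matrix protein bound by integrins.

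The sequences upstream of 3 of the genes are shown because Ctss and Plaur had the most similar values across the samples while Mif differed from both. Each is the 250 bases upstream of an annotated start in RefSeq (GRCm38.p6), written 5′ to 3′ on the gene's strand, with motif matches in capitals.
Ctss, chr3:95526536-95526785, plus strand: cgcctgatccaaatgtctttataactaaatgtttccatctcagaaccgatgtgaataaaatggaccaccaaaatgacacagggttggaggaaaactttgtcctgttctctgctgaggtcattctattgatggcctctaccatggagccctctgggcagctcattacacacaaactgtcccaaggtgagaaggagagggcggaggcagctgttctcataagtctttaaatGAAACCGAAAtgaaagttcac
Plaur, chr7:24462233-24462482, plus strand: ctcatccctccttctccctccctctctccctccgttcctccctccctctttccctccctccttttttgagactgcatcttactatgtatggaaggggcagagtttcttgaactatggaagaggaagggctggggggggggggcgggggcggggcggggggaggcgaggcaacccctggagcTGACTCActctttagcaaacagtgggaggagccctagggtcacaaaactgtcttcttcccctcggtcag
Mif, chr10:75860278-75860527, minus strand: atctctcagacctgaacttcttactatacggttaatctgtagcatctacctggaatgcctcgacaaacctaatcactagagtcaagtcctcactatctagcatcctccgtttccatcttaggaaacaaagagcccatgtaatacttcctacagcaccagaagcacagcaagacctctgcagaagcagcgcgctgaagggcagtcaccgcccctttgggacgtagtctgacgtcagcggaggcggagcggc
The capitals in Ctss mark an interferon-stimulated response element (ISRE, searched as GAAA, any 2 bases, then GAAA), which begins 21 bases before the start. Those in Plaur mark an AP-1 element (TGANTCA), 69 bases before a start that lies inside the gene's annotated span. The Mif window held no match. On either strand, the ISRE form occurred in 2.98% and the AP-1 form in 6.75% of 32851 RefSeq windows of this length. The other forms searched were NF-κB (GGGNNTTCC, 4.98% of windows, and the overlapping GGGNNNTCC, 15.2%), the E-box CACGTG (6.02%) and the PU.1 form GAGGAAGT (2.44%). Of these, the PU.1 form was found in the Ctsc window, and the App window held none. Windows were available for 5 of the 7 genes present. A match describes these letters and not a bound site.

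Compared to sham EVs, 9 Gy EVs went with lower Ctss, Plaur and App and higher Mif at both days, and with higher Plau at day 7, on the housekeeping scale. The count of tested genes past an adjusted p of 0.05 was 4 of the 5 at day 3 and 5 of the 5 at day 7. Changes were widespread in the panel: 52.4% of the 269 tested genes were called at day 3 (11.2% higher, 41.3% lower) and 61.0% at day 7 (11.9% higher, 49.1% lower), so such calls were common across the panel. Without the samples of conflicting day labels the 9 Gy day 3 group was replicate 3 alone, assumed to vary like the other groups, and 1 gene (Ctss) was called at day 3 in this comparison of 1 sample with 3. The median log2 fold change over all tested genes was -0.46 at day 3 and -0.45 at day 7, and over the 5 genes -0.57 and -0.70. Groups did not overlap for 4 of the 5 genes at day 3 and 5 of the 5 at day 7, against 55.8% and 61.7% of all tested genes.

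The housekeeping scale itself bears on these directions. The 13 tested housekeeping genes did not move together, with log2 fold changes from -0.74 (Rpl19) to 1.38 (Tubb5) at day 3. Scaling to total counts put the median of all tested genes at 0.56 at day 3 and 0.65 at day 7, and scaling by trimmed mean of M values (TMM) put it at 0.01 and 0.03. A change of scale shifts all genes by nearly the same amount, so the distance of a gene from that median is nearly the same on each scale by construction. At day 3 it was -0.72 for Plaur, -0.36 for Ctss, -0.11 for App, 1.00 for Mif and 1.28 for Plau. At day 7 it was -0.58 for Plaur, -0.25 for Ctss, -0.26 for App, 0.86 for Mif and 1.89 for Plau. Relative to the middle of the panel, Plaur, Ctss and App thus lay below and Mif and Plau above. Scaled to the median of tested genes, however, App did not pass in edgeR at either day (adjusted p = 0.783 and 0.393). Ctss did not pass there at day 7 (adjusted p = 0.113).

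**Figure D1:**
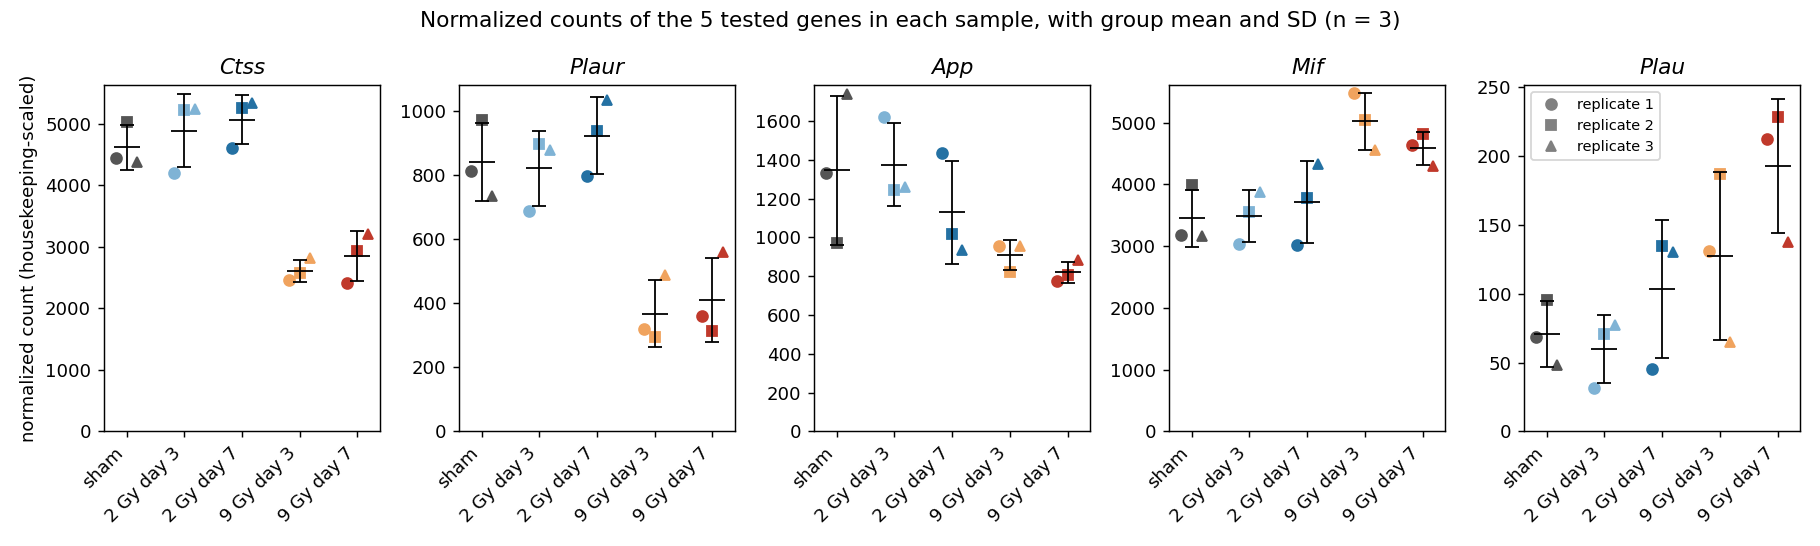
Normalized count (raw count scaled to the housekeeping genes) of the 5 tested genes on the vertical axes, by EV group; each point is 1 sample, its shape the replicate number, and the line and bars are the group mean and SD of 3 samples. The 6 samples with 9 Gy EVs lie below all 9 others for Ctss and Plaur on this scale (scaled to total counts, Ctss is higher with 9 Gy EVs and Plaur at day 7 is level), while App, Mif and Plau overlap between some groups.

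Ctss, the gene for cathepsin S (chr3:95526786-95556405, GRCm38.p6), was the cathepsin measured well enough to test. Its normalized counts were 4438, 5032 and 4379 in sham samples and 2453, 2571 and 2810 in 9 Gy day 3 samples. In 9 Gy day 7 samples they were 2418, 2933 and 3202. The 9 Gy values lay below every sham value, and below every 2 Gy value, since 2 Gy day 3 samples had 4200, 5219 and 5233 and 2 Gy day 7 samples 4613, 5247 and 5339. The log2 fold change against sham EVs was -0.82 (SE 0.14, adjusted p = 0.000217) at 9 Gy day 3 and -0.70 (SE 0.14, adjusted p = 0.000602) at 9 Gy day 7. Scaled to total counts the direction turned, to 0.20 at day 3 and 0.40 at day 7 (adjusted p = 0.00500), and under TMM the value at day 7 did not pass. The share of all counts was 0.678 to 0.730% in sham samples and 0.868 to 1.03% in 9 Gy day 7 samples. Ordered by group mean, the levels were 5066 ± 396 (SD, n = 3) at 2 Gy day 7, 4884 ± 592 at 2 Gy day 3, 4616 ± 361 in sham, 2851 ± 398 at 9 Gy day 7 and 2612 ± 182 at 9 Gy day 3, and the step from sham to 9 Gy day 7 (1.62-fold) was the only one between neighbours that did not overlap.

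Genes for MHC class II processing, in which cathepsin S acts, were in part called lower on the housekeeping scale. Of 10 listed genes, 9 were present and 4 tested, Ctss among them. At 9 Gy day 3, 2 of the 4 were lower and 0 higher (list median -0.58, all genes -0.46), and at day 7, 4 of the 4 were lower (list median -1.06, all genes -0.45), where 41.3% and 49.1% of all tested genes were lower. At day 7, Ctss and H2-DMa did not pass under TMM (adjusted p = 0.112 and 0.123) or the median gene. Cd74, the gene of the invariant chain that cathepsin S cleaves, fell from 7238 ± 158 normalized counts (SD, n = 3) in sham to 1704 ± 111 at 9 Gy day 3 and 1579 ± 103 at 9 Gy day 7. Its log2 fold changes were -2.09 and -2.20, and it was lower on every scale, at -1.05 and -1.09 when scaled to total counts. H2-DMa, part of the peptide exchange factor H2-M, gave -0.34 at day 3 (adjusted p = 0.297) and -0.83 at day 7 (adjusted p = 0.00103), and H2-Ob, part of its inhibitor H2-O, gave 0.11 (adjusted p = 0.819) and -1.29 (adjusted p = 0.000166). On the total count scale, on which most calls in the panel were higher, 1 of the 4 was lower and 1 higher at each day, and H2-Ob was the one higher at day 3 (1.12). With 2 Gy EVs 0 of the 4 were called at either day.

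Ctsc, the gene for cathepsin C (chr7:88278024-88315861), was near the floor of the assay. The raw counts of this untested gene were 11, 13 and 9 in sham samples, 12, 9 and 15 at 2 Gy day 3 and 8, 11 and 7 at 2 Gy day 7. With 9 Gy EVs they were 1, 2 and 3 at day 3 and 27, 25 and 27 at day 7. The day 3 values are those of the group with the fewest total counts. After housekeeping scaling the 9 Gy day 7 samples had 15.6 to 16.3, above the highest value of every other group (13.8), and they were also above all others under the other 4 scalings. Without the filter on low counts, the log2 fold change at 9 Gy day 7 against sham EVs was 0.54 (SE 0.23, adjusted p = 0.106), which did not pass. The granule proteases that cathepsin C activates could not be compared, since 3 of 6 listed were present and 0 passed the filter.

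**Figure D2:**
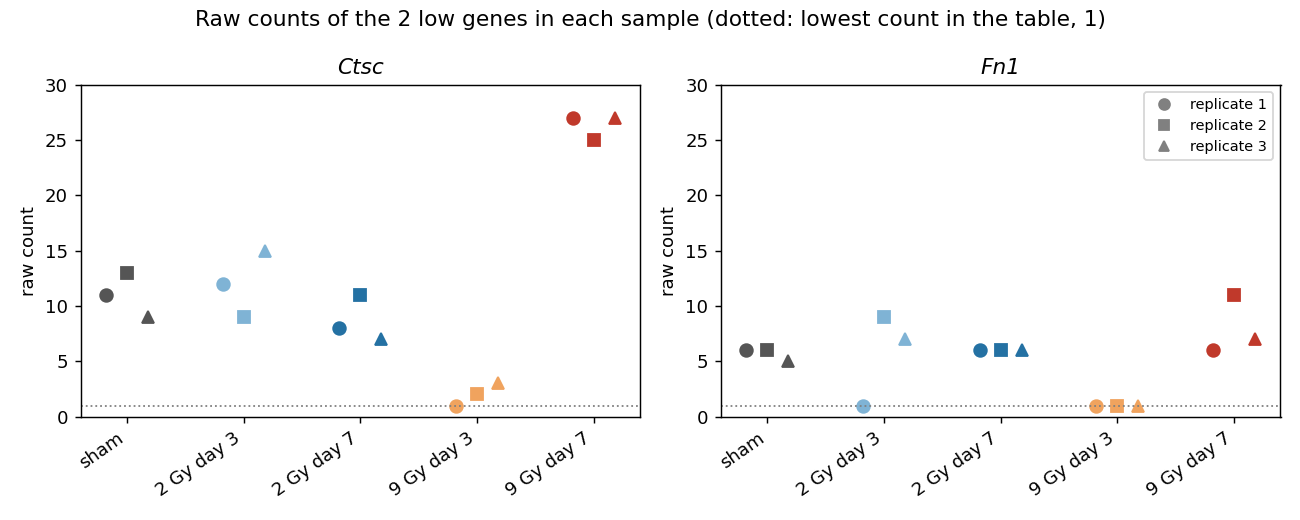
Raw counts of Ctsc and Fn1 in each sample by EV group, with the lowest count of the table, 1, as a dotted line; point shapes give the replicate number. Ctsc stands at 25 to 27 in the 9 Gy day 7 samples and at 15 or less elsewhere, and Fn1 does not exceed 11 counts in any sample.

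Plaur and Plau, the receptor and its protease ligand, moved in opposite directions on the housekeeping scale with 9 Gy day 7 EVs. Plaur (chr7:24460937-24475970) had 813, 972 and 734 normalized counts in sham samples. With 9 Gy EVs it had 320, 295 and 487 at day 3 and 359, 313 and 560 at day 7. Every 9 Gy sample was below every sham and 2 Gy sample, as the 2 Gy samples had 687, 895 and 878 at day 3 and 797, 936 and 1034 at day 7. The log2 fold change against sham EVs was -1.18 (SE 0.24, adjusted p = 0.00125) at day 3 and -1.03 (SE 0.23, adjusted p = 0.00170) at day 7. On the total count scale neither passed, at -0.17 (adjusted p = 0.428) and 0.044 (adjusted p = 0.826). The group means ran from 922 ± 119 (SD, n = 3) at 2 Gy day 7 over 840 ± 121 in sham and 820 ± 116 at 2 Gy day 3 to 411 ± 131 at 9 Gy day 7 and 367 ± 104 at 9 Gy day 3, and among neighbours a gap without overlap (2.00-fold) lay only between 2 Gy day 3 and 9 Gy day 7.

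Plau (chr14:20836662-20843388) gave few counts in all groups. Normalized counts were 68.8, 95.4 and 48.1 in sham samples, and 213, 228 and 138 in 9 Gy day 7 samples, all of them above the sham range. In 9 Gy day 3 samples they were 131, 187 and 64.9, from raw counts of only 18, 38 and 16, and replicate 3 fell within the sham range. In 2 Gy samples they were 31.5, 71.1 and 77.1 at day 3 and 45.4, 134 and 131 at day 7. Against sham EVs, 9 Gy day 7 EVs gave a log2 fold change of 1.44 (SE 0.44, adjusted p = 0.0108), a 2.72-fold rise that passed in each of the 21 alternatives run, at 1.23 to 2.59. For 9 Gy day 3 EVs it was 0.83 (SE 0.50, adjusted p = 0.177), with a 95% interval from -0.26 to 1.91, and it passed when counts were scaled by TMM (1.30), the median gene (1.31) or total counts (1.88). The ordered group means were 193 ± 48.5 (SD, n = 3) at 9 Gy day 7, 128 ± 61.0 at 9 Gy day 3, 103 ± 50.4 at 2 Gy day 7, 70.7 ± 23.7 in sham and 59.9 ± 24.8 at 2 Gy day 3, and each neighbouring pair overlapped.

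The counts of Plau and Plaur within one sample give a ratio that needs no scaling. It is not a ratio of transcript numbers, because the probes can differ in efficiency, so only its differences between samples are used. Plau counts were 6.55 to 9.82% of Plaur counts in sham samples, 4.58 to 8.78% at 2 Gy day 3 and 5.69 to 14.4% at 2 Gy day 7. With 9 Gy EVs they were 40.9, 63.3 and 13.3% at day 3 and 59.3, 72.9 and 24.6% at day 7. Replicate 3 was the lowest of the 9 Gy samples at each day, and at day 3 it lay within the 2 Gy day 7 range. The ratio was on average 4.72-fold higher with 9 Gy than with 2 Gy EVs (6 against 6 samples). The pair was singled out after its values were seen, so this is a description with no test.

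**Figure D3:**
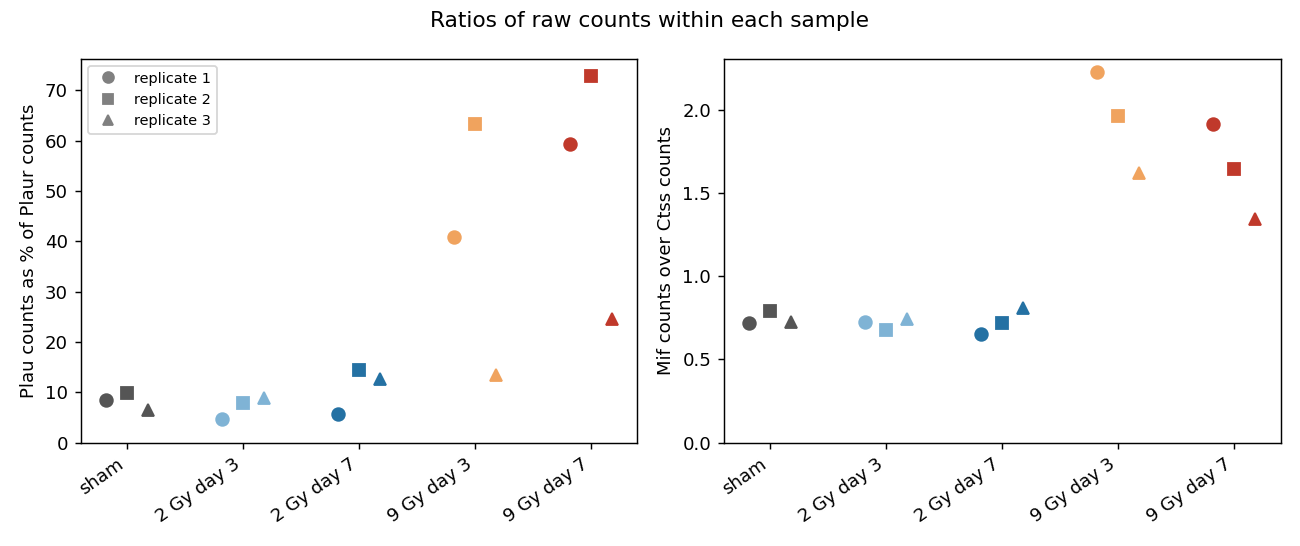
Ratios of raw counts within each sample, by EV group: Plau counts as a percentage of Plaur counts (left) and Mif counts over Ctss counts (right), with point shapes for replicate numbers. The Mif to Ctss ratio is 1.34 to 2.23 in the 9 Gy samples and 0.655 to 0.812 in the 9 others, whereas the Plau share of 9 Gy day 3 replicate 3 (13.3%) lies among those of 2 Gy day 7.

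The list of plasminogen activation genes and of the integrins that uPAR binds held 7 genes, of which 5 were present and tested, Plau and Plaur among them. On the housekeeping scale 0 were higher and 3 lower at 9 Gy day 3 (list median -0.65, all genes -0.46), and 1 (Plau) was higher and 3 lower at day 7 (list median -0.53, all genes -0.45). Of all tested genes 11.2% were higher and 41.3% lower at day 3, and 11.9% and 49.1% at day 7. Those lower were, besides Plaur, Itgam, the alpha chain of complement receptor 3, at -1.76 and -1.60, and Itgb1, the integrin beta 1 chain, at -0.49 and -0.43. Itgb2, the beta chain that pairs with Itgam, had -0.65 (adjusted p = 0.0654) and -0.53 (adjusted p = 0.0861). Scaled to total counts, 2 were higher and 1 lower at day 3 and 3 higher and 0 lower at day 7, where over all 269 tested genes 121 were higher and 33 lower at day 3 and 143 and 31 at day 7. Itgb1 did not pass under TMM at either day, and with total counts its direction turned (0.54 and 0.68) while Itgam stayed below 0 (-0.76 and -0.49). With 2 Gy EVs 0 of the 5 were called.

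Mif (chr10:75859353-75860277) was higher with 9 Gy EVs. Its normalized counts were 3187, 3989 and 3170 in sham samples, 5474, 5045 and 4550 at 9 Gy day 3 and 4635, 4820 and 4301 at 9 Gy day 7. All 6 samples with 9 Gy EVs were above all sham samples. The 2 Gy samples had 3040, 3547 and 3875 at day 3 and 3020, 3783 and 4334 at day 7, and the last of these exceeded the lowest 9 Gy value. Against sham EVs the log2 fold change was 0.54 (SE 0.15, adjusted p = 0.00975) at day 3 and 0.41 (SE 0.15, adjusted p = 0.0312) at day 7, and it was larger on each other scale. The day 7 call was lost without sham replicate 1 (adjusted p = 0.106), sham replicate 3 (adjusted p = 0.107), 9 Gy day 7 replicate 1 (adjusted p = 0.0651) or 9 Gy day 7 replicate 2 (adjusted p = 0.0867). As a share of all counts, Mif was 0.491 to 0.579% in sham samples, 1.28 to 1.74% at 9 Gy day 3 and 1.20 to 1.69% at 9 Gy day 7. The group means were 5023 ± 462 (SD, n = 3) at 9 Gy day 3, 4585 ± 263 at 9 Gy day 7, 3712 ± 660 at 2 Gy day 7, 3487 ± 420 at 2 Gy day 3 and 3449 ± 468 in sham, with overlap between each pair of neighbours.

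Measured against Ctss, Plaur or App in the same sample, without any scaling, Mif counts were higher with 9 Gy EVs. The ratio of Mif to Ctss counts had a median of 1.78 in the 6 samples with 9 Gy EVs and 0.724 in the 9 others, 2.46-fold apart and without overlap. Mif over Plaur was 7.68 to 17.1 against 3.79 to 4.43, and Mif over App 4.77 to 6.14 against 1.83 to 4.64. Of the 10 ratios between the 5 genes, these 3 separated the samples and 7 overlapped. The share of separating ratios among pairs of all tested genes was not computed. A ratio cannot tell a rise of Mif from a fall of the gene it is set against. Plau over Mif was among those that overlapped, with a median 1.72-fold higher in the 9 Gy samples. The ratio of Ctss to Plaur was the least different, with medians 1.24-fold apart.

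The tested components of the MIF receptor, Cd74 and Cd44, were lower on the housekeeping scale, and Cd74 was lower on every scale. Of 4 listed genes all were present, 2 passed the filter, and both were lower at each 9 Gy day, as were 41.3% of all tested genes at day 3 and 49.1% at day 7, with a list median of -1.40 at day 3 (all genes -0.46) and -1.38 at day 7 (all genes -0.45). Beside Cd74, described above, stood Cd44, the signaling partner of CD74, which went from 886 ± 17.3 normalized counts (SD, n = 3) in sham to 546 ± 72.2 and 603 ± 51.3 (log2 fold changes -0.70 and -0.56). Cd44 did not pass under TMM (-0.23, adjusted p = 0.134 and -0.07, adjusted p = 0.606) or the median gene at either day, and its direction turned on the total count scale (0.33 and 0.55). Cxcr2 and Cxcr4, chemokine receptors that also bind MIF, were below the filter.

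App (chr16:84952666-85175255) had a wide spread in the sham group. Normalized counts were 1331, 971 and 1737 in sham samples, 954, 821 and 953 at 9 Gy day 3 and 777, 804 and 882 at 9 Gy day 7. All 9 Gy values were below the lowest sham value, though the gap at day 3 was small. In 2 Gy samples they were 1622, 1244 and 1258 at day 3 and 1433, 1019 and 934 at day 7, so the groups overlapped. The log2 fold change was -0.57 (SE 0.21, adjusted p = 0.0379) at 9 Gy day 3 and -0.71 (SE 0.21, adjusted p = 0.00926) at 9 Gy day 7. With total counts it turned to 0.45 and 0.38, and with TMM, the median gene or the housekeeping genes averaging 100 counts or more it passed at neither day. In all, the day 3 call was lost in 14 of 21 alternatives, among them leaving out any 9 Gy day 3 replicate or sham replicate 1 or 3, and the day 7 call without sham replicate 3 (-0.49, adjusted p = 0.0579). The group means were 1375 ± 214 (SD, n = 3) at 2 Gy day 3, 1346 ± 383 in sham, 1129 ± 267 at 2 Gy day 7, 909 ± 76.3 at 9 Gy day 3 and 821 ± 54.5 at 9 Gy day 7, with overlap between each pair of neighbours.

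Fn1 (chr1:71585473-71653280), the fibronectin gene, was barely detected. Its raw counts were 5 to 6 in sham samples, 1 to 9 at 2 Gy day 3, 6 at 2 Gy day 7, 1 in each 9 Gy day 3 sample and 6 to 11 at 9 Gy day 7, and no difference was detectable at this depth. The receptors for fibronectin and osteopontin were better measured, with 4 of 7 listed genes present and all 4 tested. On the housekeeping scale 1 was higher and 3 lower at each 9 Gy day (list median -0.60 and -0.49, all genes -0.46 and -0.45, with 41.3% and 49.1% of all genes lower), so at day 7 the list median was close to that of the panel. The higher one was Itga4, the integrin alpha 4 chain, at 0.90 and 0.81, and those lower were Itga5, the alpha 5 chain of the classical fibronectin receptor, at -1.37 and -0.96, Cd44 and Itgb1. Itga4 was higher on every scale, whereas Itga5, Cd44 and Itgb1 did not pass under TMM, and at day 7 all had values above 0 on the total count scale. With 2 Gy EVs 0 of the 4 were called.

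**Figure D4:**
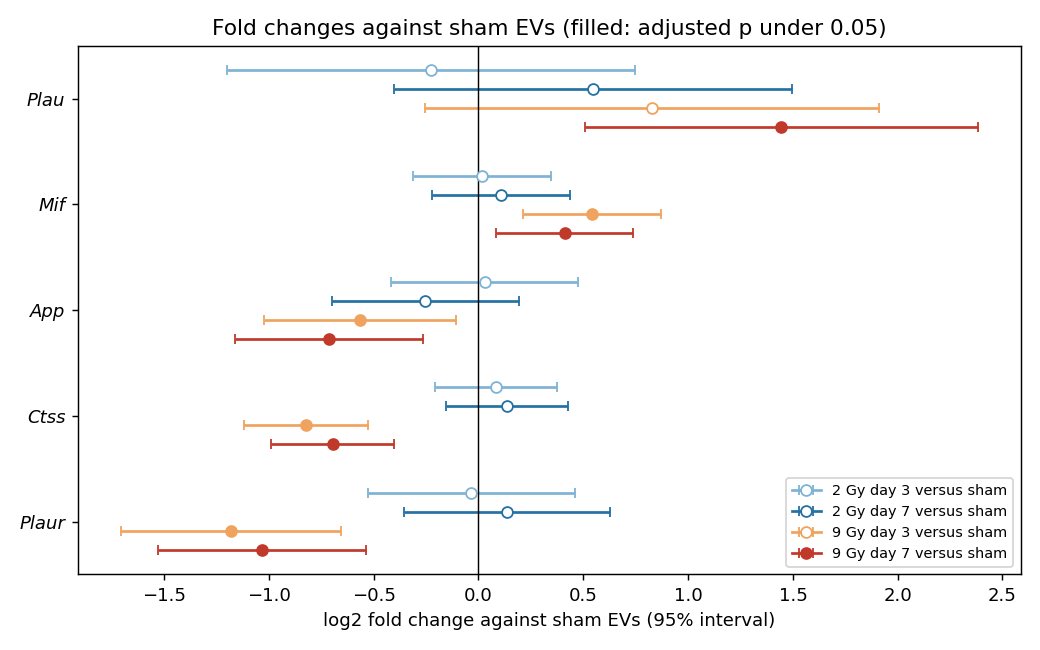
Log2 fold change of each tested gene against sham EVs, scaled to the housekeeping genes, for each of the 4 irradiated groups, with 95% intervals; filled points have an adjusted p under 0.05. The filled points belong to 9 Gy groups only: Plaur, Ctss and App lie below 0 (scaled to total counts, Ctss and App lie above it and Plaur near it), Mif lies above 0 at both days and Plau at day 7.

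EVs from mice given 2 Gy went with no called difference from sham EVs in any of the 5 genes. In edgeR 0 of 269 genes (0% of those tested) passed at 2 Gy day 3 and 0 at 2 Gy day 7. At an unadjusted p under 0.05, edgeR had 7 and 1 genes, none of the 5 among them, and DESeq2 called 1 and 0 after adjustment. The groups overlapped with sham for all 5 genes at each day, and 13.0% and 4.09% of all tested genes did not overlap. The log2 fold changes at day 3 were 0.08 (SE 0.14) for Ctss, 0.02 (SE 0.15) for Mif, 0.03 (SE 0.21) for App, -0.03 (SE 0.23) for Plaur and -0.23 (SE 0.45) for Plau. At day 7 they were 0.13, 0.11, -0.25, 0.14 and 0.55 in the same order, with standard errors of 0.14, 0.15, 0.21, 0.23 and 0.44. The intervals show what was not detectable: from -0.21 to 0.37 for Ctss at day 3, but from -1.20 to 0.75 for Plau. The absence of a call in these groups is no test of a difference from the 9 Gy groups, which was tested directly.

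Compared directly, 9 Gy and 2 Gy EVs differed for 5 of the 5 genes over both days, where 67.7% of all tested genes were called (15.6% higher, 52.0% lower). The log2 fold change was -1.16 (SE 0.17, adjusted p = 3.8e-05) for Plaur and -0.87 (SE 0.10, adjusted p = 3.2e-06) for Ctss. It was -0.53 (SE 0.15, adjusted p = 0.00622) for App, 0.42 (SE 0.11, adjusted p = 0.00371) for Mif and 0.98 (SE 0.33, adjusted p = 0.0183) for Plau, a 1.97-fold difference. Samples of the 2 doses did not overlap for Ctss and Plaur, both lower on the housekeeping scale, and overlapped for the other 3, while 43.9% of all tested genes did not overlap. On the total count scale App (0.60) and Ctss (0.27) turned and Plaur did not pass (-0.04, adjusted p = 0.781), whereas Mif (1.57) and Plau (2.15) were higher on each scale. The App call was lost under TMM (-0.07, adjusted p = 0.702), the median gene (-0.09, adjusted p = 0.639) and the housekeeping genes averaging 100 counts or more (-0.34, adjusted p = 0.0607), without the samples of conflicting day labels (-0.49, adjusted p = 0.0524) and in the day 7 groups alone (-0.46, adjusted p = 0.0728). The Plau call was lost without 9 Gy day 3 replicate 2 (0.76, adjusted p = 0.0871), with the samples of conflicting labels moved to day 7 (0.46, adjusted p = 0.356) or left out (0.50, adjusted p = 0.366), both of which leave 1 sample at 9 Gy day 3, and in the groups of day 3 (1.05, adjusted p = 0.0946) or day 7 (0.90, adjusted p = 0.0864) alone. The Mif call was lost in the day 7 groups alone (0.30, adjusted p = 0.104). A two-sided exact permutation test of each gene, 6 samples against 6, which can reach p = 0.00216, gave adjusted p = 0.00493 for Ctss and for Plaur, 0.00863 for Mif and 0.0117 for App. For Plau it gave 0.0661, which did not pass. With other scalings the permutation test of App did not pass under TMM (adjusted p = 0.814) or the median gene (adjusted p = 0.746), and that of Plaur did not pass with total counts (adjusted p = 0.695), where Ctss and App passed in the turned direction. Plau passed on each of these 3 scales (adjusted p = 0.0201, 0.0199 and 0.0102). This test and the edgeR comparison take the samples of both days as independent, although same-numbered samples deviated together between days. With 3 numbers at each dose an exact test could not go below 0.1.

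**Figure D5:**
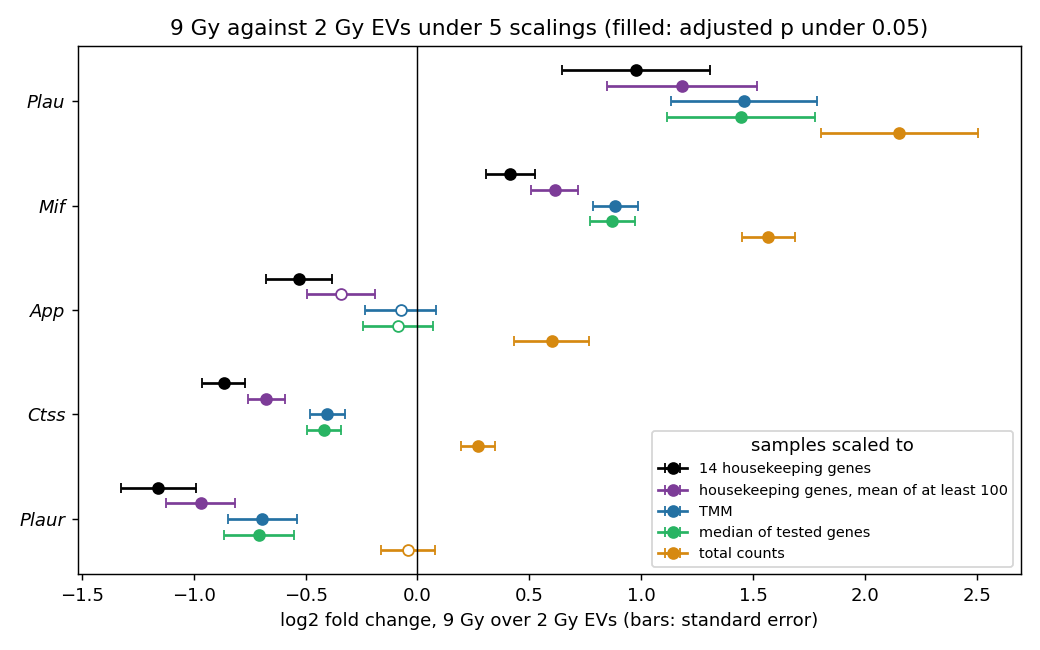
Log2 fold change of each tested gene in 9 Gy over 2 Gy EV samples of both days under 5 ways of scaling the samples, with standard errors as bars; filled points have an adjusted p under 0.05. All 5 genes shift together with the scale: Plau and Mif are above 0 on each scale, Ctss and App change sign with total counts, and Plaur goes from -1.16 to -0.04.

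No difference between EVs of day 7 and day 3 was called at either dose, nor a dose by day interaction, in edgeR (0% of tested genes each). Unadjusted p was under 0.05 for 6 genes at 9 Gy, 4 at 2 Gy and 4 for the interaction, none of them among the 5, and DESeq2 called 0 in each. The largest of the 5 differences between days was that of Plau, with a log2 fold change of 0.62 (SE 0.48) at 9 Gy and 0.77 (SE 0.45) at 2 Gy. The other 4 genes differed by -0.28 to 0.17. Samples with the same replicate number deviated together between days, and with the number as a block and only the groups compared in the fit, 27 genes were called for 2 Gy day 7 against day 3. Plau was then higher at day 7 (0.79, adjusted p = 0.00238) and App lower (-0.30, adjusted p = 0.0267). The block called 0 genes at 9 Gy, and 0 at 2 Gy when all groups were in the fit.

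The replicates shared part of this variation. In the 9 Gy groups, replicate 3 had the lowest Plau and the highest Plaur at each day, and in the 2 Gy groups replicate 1 had the lowest Plau and the highest App at each day. Over the 15 samples, whose 9 Gy members stand apart, Ctss and Plaur had a Pearson correlation of 0.96 (0.73 for deviations from the group means). App and Plau had -0.91 (-0.83 within groups), Mif and Plau 0.82 (0.86) and Mif and App -0.89 (-0.83). Ctss and Mif had -0.71 over all samples and 0.44 within groups, so this relation was not shared within groups. These values are descriptions: the points share the scaling to the same housekeeping genes.

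Among the other tested genes, those with the most similar values over the 15 samples are named as descriptions. For Ctss they were Psmb10, a subunit of the immunoproteasome (Pearson 0.98, within groups 0.82), and Emr1, the macrophage marker F4/80 (0.98, within groups 0.85). For Plaur they were Il1b, the gene of interleukin-1 beta (0.99, within groups 0.95), and Ccl9, a chemokine (0.98, within groups 0.92). Il1b went from 4897 ± 1307 normalized counts (SD, n = 3) in sham to 201 ± 240 at 9 Gy day 3 and 213 ± 247 at 9 Gy day 7. For Mif they were Itga4 (0.96, within groups 0.90) and Icam1, the ligand of beta 2 integrins (0.96, within groups 0.94). For Plau they were Trem2, a lipid-sensing receptor of macrophages (0.90, within groups 0.86), and Il15, a cytokine (0.89, within groups 0.89). For App they were Psmc2, a subunit of the proteasome cap (0.96, within groups 0.94), and Cd14, the LPS co-receptor (0.91, within groups 0.81).

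The macrophage markers themselves were unevenly changed on the housekeeping scale, with 1 of 9 tested markers higher and 6 lower at each 9 Gy day (list median -1.20 and -1.25, all genes -0.46 and -0.45), against 41.3% and 49.1% of all tested genes lower. The higher one was Csf1r, the receptor for macrophage colony-stimulating factor, at 2.29 and 1.87. The largest falls were those of Fcgr1, the high-affinity IgG receptor, at -1.94 and -1.91, and Itgam. Under TMM, 2 markers were higher and 4 lower at day 3, where 59 and 60 of all tested genes were. Fcgr1 (-1.46 and -1.44) and Itgam (-1.29 and -1.11) stayed lower under TMM, and Csf1r (2.76 and 2.36) higher. Scaled to total counts, 3 were higher and 1 lower at day 3 and 3 higher and 0 lower at day 7, on a scale where 121 of the 269 tested genes were higher at day 3 and 143 at day 7. In bulk samples, fewer expressing cells and less RNA per cell cannot be told apart, for these markers and for the genes above.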

How the data were processed

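The authors deposited raw counts of the nanoString nCounter Mouse Immunology panel for each gene and sample, as whole numbers without control probes; no count was below 1. Per the study's methods the counts were normalized in nSolver with settings not given in the sources used here, so the deposited counts were scaled here to the 14 housekeeping genes of the panel through their geometric mean (scaled count = count × mean factor / sample factor). The labels give another EV number per culture and another lysis reagent than the methods do. Genes averaging 20 counts or more (269 of 561) entered one quasi-likelihood fit of all 5 groups (edgeR 4.0.16, R 4.3.3, prior count 0.125), with Benjamini-Hochberg adjustment over all genes tested and a threshold of 0.05. SE is the absolute log2 fold change over the square root of F. DESeq2 1.42.0 and limma 3.58.1 were alternatives, beside other scalings, filters, prior counts, day labels, blocks and each sample left out. The procedure was tested on simulated data in which the housekeeping genes were left unchanged, so this does not bear on the choice of scale.

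The genes and lists were chosen with earlier results of these data known. All the chosen genes are named, with at most 3 called genes per list by size of change and the 2 most similar genes for each tested gene. Itgb1, Itgb2, H2-DMa, Cxcr2, Cxcr4 and the housekeeping genes Rpl19 and Tubb5 were named after their values were seen. Deviations from group means correlated between same-numbered samples of the 2 Gy groups (0.392 to 0.782) and of the 9 Gy groups (0.350 to 0.730), but not throughout between other groups, so the pairing, found in the data and not stated by the labels, bears on comparisons between days and on tests that pool both days. No replicate pair of a group agreed within sampling noise. Gene positions and upstream sequences are from RefSeq, GRCm38.p6.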

Additional observations from a re-analysis of the deposited data

How the results depend on the processing

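With total counts the fold changes turned for App (0.45 at 9 Gy day 3, 0.38 at 9 Gy day 7, 0.60 for 9 Gy against 2 Gy), for Ctss (0.20, 0.40 and 0.27) and for Plaur at 9 Gy day 7 (0.044); all other turns of sign were of values not past the threshold in either setting. The count of genes called among the 5 at 9 Gy day 7 was 3 under TMM, the median gene and total counts, where 151, 153 and 174 of the 269 tested genes were called. It was 3 to 5 when single samples were left out (3 without sham replicate 3). At 9 Gy day 3 it was 2 with total counts (154 of the 269 tested genes called) and 3 to 4 when single samples were left out. It was 1 (Ctss in each case) with the samples of conflicting day labels moved to day 7 and 1 without them, but both leave replicate 3 alone at 9 Gy day 3, assumed to vary like the other groups, so these counts do not separate the labels from the smaller group. For 9 Gy against 2 Gy the main fit called 182 of the 269 tested genes, and the share called in the following fits is not given here. With the conflicting samples left out, App and Plau lost the call. The count among the 5 was 4 to 5 without single samples. Chosen after seeing the data, it was 2 in the day 7 groups only (Ctss and Plaur) and 4 in the day 3 groups only. For 2 Gy day 7 against day 3 it was 2 with the replicate block and only the groups compared, a fit that also called Plau at 9 Gy day 3 (0.80, adjusted p = 0.0454) and lost App at 9 Gy day 3 (adjusted p = 0.0713) and Mif (adjusted p = 0.0577 at day 3, 0.0712 at day 7). The block over all groups gave 4, 5 and 5 at 9 Gy day 3, at 9 Gy day 7 and for 9 Gy against 2 Gy, with no call changed. Over all tested genes, 30 were higher and 111 lower at 9 Gy day 3, against 59 and 60 under TMM and 121 and 33 with total counts; at 9 Gy day 3, the lone sample gave 74 calls with the conflicting samples at day 7 and 78 without them, and 3 samples gave 141. A filter of 100 counts (164 genes tested) called 109 at 9 Gy day 7 in place of 164. Counts under 20 set to 20 called 87 genes for 9 Gy day 7 against day 3 and 73 for the interaction, in place of 0 and 0, with none of the 5 among them. This floor was set before scaling, so it raises low genes most at 9 Gy day 3, where 96 to 137 tested genes per sample were under 20. At 9 Gy day 7 these were 6 to 11, so the added calls are no sign of a difference between days. In addition, 1 gene each was called for 2 Gy day 7 without a filter and for 2 Gy day 3 in DESeq2. Of the single gene values, 43 lost the call with the same sign and 6 gained it. Depth limits Ctsc, Fn1 and, at 9 Gy day 3, Plau. The causes were not tested.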
